A study of Rattus norvegicus with 38 samples.

Results

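L-NAME was added to anti-Fx1A antiserum in rats, and the kidneys of 10 animals given both were compared with those of 10 animals given the antiserum alone, 20 of the 38 animals of the series. The animals were chosen by the treatment in the sample titles, and their numbers run in group order. Those of the antiserum group (animals 9 to 18) received anti-Fx1A at 2.5 mL/kg. Those of the combination (animals 29 to 38) received anti-Fx1A at 2.0 mL/kg, with a daily L-NAME dose of 20 mg/kg. Kidney RNA was taken after 7 weeks and read from the 3' ends of transcripts. The antiserum dose was lower in the combination, so adding L-NAME and lowering the antiserum cannot be told apart in this comparison. Strain, sex and age are not given in the sources used here. A further 10 animals given only L-NAME, at the same daily dose, and 8 given vehicle entered the fit and are used where the same drug is set beside its effect without the antiserum.

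Anti-Fx1A is an antiserum to Fx1A, a preparation of proximal tubule brush border from rat kidney. Its antibodies bind megalin and related antigens on podocytes, the cells that cover the glomerular capillary, and give rise to immune deposits and protein loss, the Heymann model of membranous nephropathy. L-NAME blocks the enzymes that make nitric oxide, the mediator by which endothelium relaxes vessels. When given for weeks to rats it raises blood pressure and injures glomeruli and small arteries. The series joined the agents as a model of glomerular and tubular injury.

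The deposited table names genes by Ensembl identifiers alone, and 0 of the 30207 identifiers were paired with a symbol in the tables used here. The comparison is therefore described by groups of genes defined by their behaviour in the other 18 animals, by abundance, and by 4 genes under their identifiers. Roles cannot be given to these 4 genes, and the tissue label could not be checked against marker genes. In whole kidney, fewer cells of a type and less RNA per cell cannot be told apart.

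The 20 libraries held between 4434855 and 7119831 reads, and antiserum animals 9 to 12 stood apart from 13 to 18. Animals 9 to 12 had 4434855 to 5228067 reads, with 18.2 to 25.7% of them in the 10 most abundant genes of each library. Animals 13 to 18 had 6454754 to 7119831 reads and 30.1 to 38.4% in those genes. The combination had 5262515 to 7023819 reads, deeper than all of animals 9 to 12, and 21.1 to 37.5% in those genes, which overlapped both stretches. No label gives a batch, and animals 9 to 12 and 13 to 18 were of the same labelled treatment. Of the 12599 genes tested, 2455 (19.5%) kept the 2 stretches apart without overlap, 1325 with animals 9 to 12 above and 1130 with them below. Over all 10 and 10 animals no difference between the treatments in either measure passed a test. The share of the 10 most abundant genes was 29.9 ± 7.30% with the antiserum and 28.8 ± 5.09% in the combination (mean ± SD, n = 10 each, permutation test, two-sided, adjusted p = 0.712 over 3 measures). For depth and for the number of genes with a read the adjusted permutation p was 0.712 and 0.558.

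**Figure D1:**
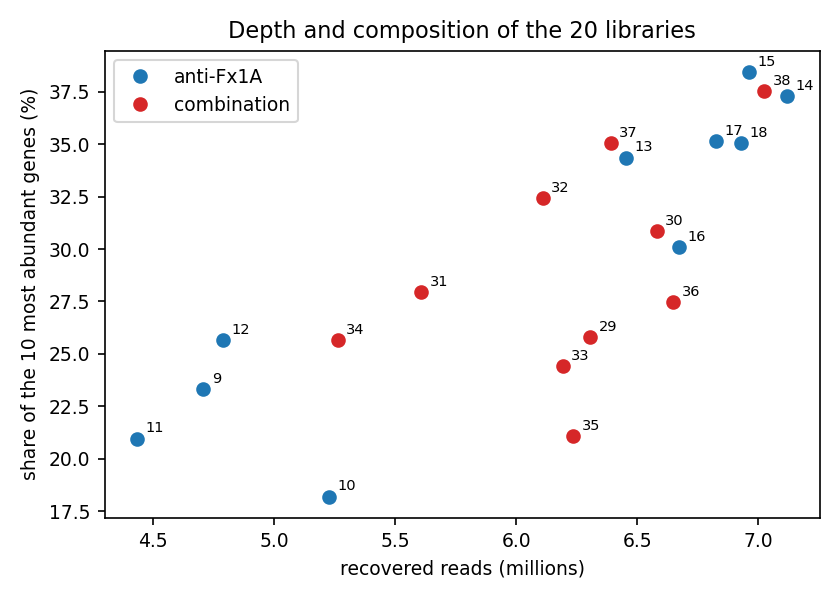
Recovered reads per library (x axis, in units of 1e6 reads) against the share of reads in the 10 most abundant genes of that library (y axis, percent), 1 point per animal with its number. Antiserum animals 9 to 12 lie between 4434855 and 5228067 reads, below the antiserum animals 13 to 18. The combination animals have 5262515 to 7023819 reads, so none has a depth within the range of animals 9 to 12.

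Between the antiserum alone and the combination nearly equal numbers of genes moved up and down on the deposited scale, mostly by less than 1.5-fold. In the combination 1196 genes (9.49% of those tested) were higher than with the antiserum alone and 1232 genes (9.78%) were lower (limma, adjusted p under 0.05), together 19.3%. The median change of the higher genes was 0.39 log2 units, with quartiles of 0.31 and 0.51, and that of the lower genes -0.42, with quartiles of -0.58 and -0.33. Among higher genes 332 changed by less than 1.25-fold, 193 by 1.5-fold or more and 23 by 2-fold or more. Among lower genes these counts were 293, 299 and 40. The split of directions differed with voom on reads recovered from the table. Voom changes the scale, the weights, the variance model and the scaling of libraries, here by total reads, together. There 1159 genes were higher and 669 lower, so that higher genes made up 63.4% of the calls instead of 49.3%. With median-centred libraries 1344 genes were higher and 1087 lower (55.3% higher), and with quantile normalisation 1294 and 1171 (52.5% higher).

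Complete separation of the groups was rare. The called genes were chosen by the difference between these same 20 animals, so the following counts describe them and are not further evidence. All 10 combination animals lay above the antiserum median for 730 of the 1196 higher genes, and all 10 below it for 864 of the 1232 lower genes. At least 5 combination animals lay beyond the whole antiserum range for 664 higher and 624 lower genes. Over all genes tested, all 10 lay above the antiserum median for 7.88% and below it for 10%, and at least 5 lay above the antiserum range for 7.91% and below it for 7.6%. For 66 higher and 72 lower genes no combination animal did. The groups did not overlap at all for 20 higher genes (0.159% of the genes tested) and 19 lower genes (0.151%). The antiserum animals were the more variable group, with a median SD of 0.235 log2 units per gene against 0.218 in the combination. Within antiserum animals 13 to 18 the median SD was 0.173, and within 9 to 12 it was 0.201.

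The number of calls changed with the stretch of the antiserum group that was used. Without animals 9 to 12, 958 genes were higher and 958 lower. Without animals 13 to 18, 1566 were higher and 1796 lower. Of the 1196 higher genes, 285 were called in both of these fits. Of the 1232 lower genes, 206 were called in both. These genes were chosen on the same animals and the fits share all 10 combination animals, so their signs are largely fixed and are not given. The median log2 fold change of the higher genes was 0.36 without animals 9 to 12 and 0.42 without 13 to 18, and that of the lower genes -0.36 and -0.48. When each of the 20 animals was left out in turn, 710 higher and 688 lower genes were called every time. Of all 2428 called genes, 18.1% kept animals 9 to 12 apart from 13 to 18, against 19.5% of the genes tested. Stretches that lie apart widen the spread of the antiserum group, which makes a call harder. These shares therefore do not show that the calls were free of the stretches.

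Genes of every level of abundance took part. The genes were ranked by mean level and divided into 5 classes of equal size. In the lowest class, with a median of 19 reads, 7.02% were higher and 4.68% lower. In the highest class, with a median of 710 reads, 13.9% were higher and 12.1% lower. The next highest class held 10.6% higher and 12.9% lower genes. Among the 100 most abundant genes, 10 were higher and 9 lower, near the shares over all genes. The deposited scale is compressed at low counts.

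The higher genes were 9.49% and the lower genes 9.78% of the genes tested, and their shares of the reads were as follows. The 1196 higher genes took 6.90 to 10.9% of the reads of the antiserum libraries, with a median of 7.77%, and 9.18 to 13.7% of the combination libraries, with a median of 11.03%. The 1232 lower genes took 6.64 to 11.6% with the antiserum, median 8.53%, and 5.28 to 7.02% in the combination, median 5.89%. The libraries of the groups overlapped for both. These shares describe genes that were chosen by this difference, so no test is given.

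The combination differed from the antiserum group mostly in the direction of the response to L-NAME without the antiserum. That response was measured in 18 other animals. The lower antiserum dose is part of the first difference and not of the second. L-NAME alone raised 996 genes (7.91% of those tested) and lowered 784 (6.22%) against vehicle. Of the 1196 genes higher in the combination, 1130 (94.5%) were also above vehicle with L-NAME alone, and of the 1232 lower genes 1131 (91.8%) were below it. Over all genes tested, 73.0% had the same sign in both comparisons. The 506 genes called higher in both were 42.3% of the genes called here and 50.8% of those called for L-NAME alone. The 305 called lower in both were 24.8% and 38.9%. Among genes that changed at least 2-fold here, 23 of 23 higher and 39 of 40 lower genes had the same sign with L-NAME alone, and 14 and 11 of them were called there.

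**Figure D2:**
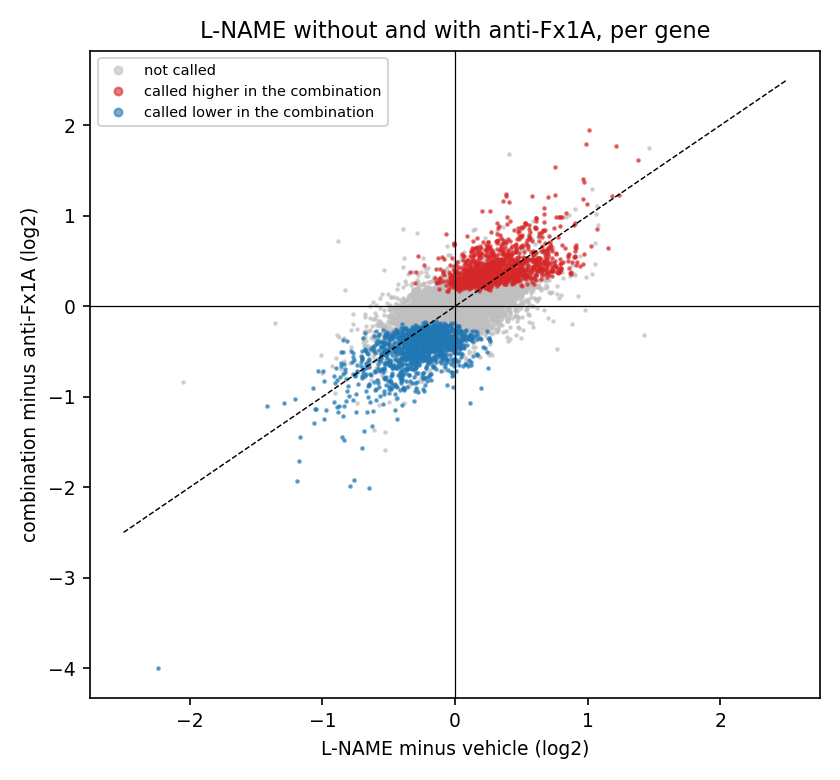
Each of the 12599 genes tested, by its log2 fold change with L-NAME alone against vehicle (x axis) and in the combination against anti-Fx1A (y axis). The comparisons share no animal, and the dashed line marks equal change. Of the genes called higher (red) 1130 of 1196 lie to the right of the vertical zero line, and of those called lower (blue) 1131 of 1232 lie to its left.

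The larger the change with L-NAME alone, the more often a gene was called in the combination in the same direction, except among the few genes that L-NAME alone raised at least 2-fold. Where L-NAME alone changed a gene by less than 1.25-fold in either direction (10417 genes), 6.11% were called higher in the combination and 7.47% lower. Of 889 genes that L-NAME alone raised 1.25 to 1.5-fold, 40.7% were called higher and 0 lower, with a median of 0.29 log2 units here and 0.40 with L-NAME alone. Of 272 genes raised 1.5 to 2-fold, 69.5% were called higher, with a median of 0.46 here and 0.68 alone. Only 17 genes were raised at least 2-fold, of which 8 were called. On the falling side, 41.0% of 814 genes lowered 1.25 to 1.5-fold and 62.1% of 174 genes lowered 1.5 to 2-fold were called lower. The medians of those 174 genes were -0.61 here and -0.68 alone. Of the 16 genes lowered at least 2-fold, 12 were called lower, with medians of -1.08 here and -1.17 alone. Genes were put in these ranges by a measured change, whose error draws the other comparison towards 0, so the medians do not show a weaker response.

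**Figure D3:**
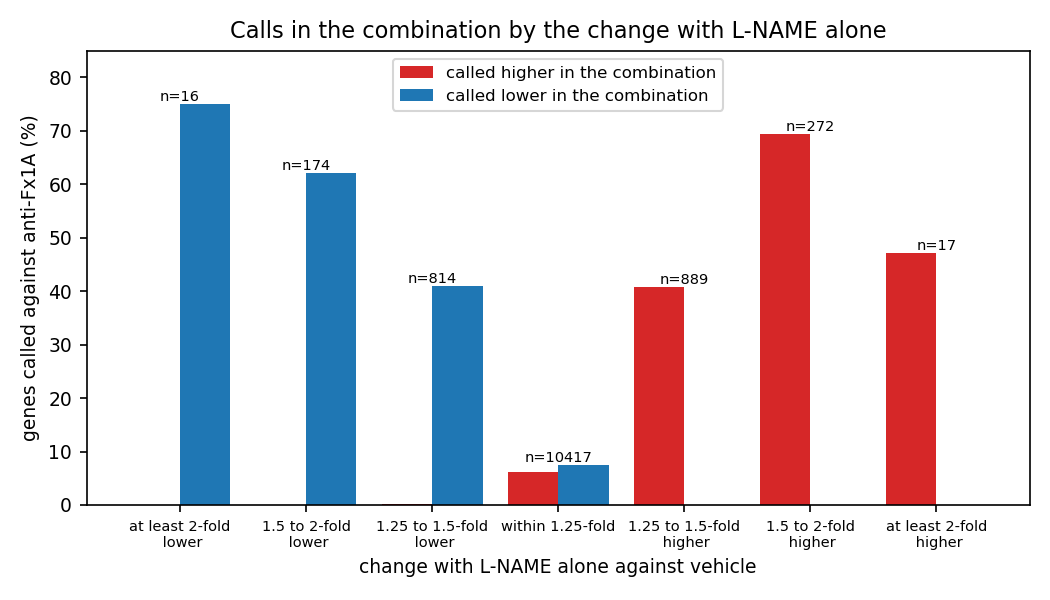
Percent of genes called higher (red) or lower (blue) in the combination against anti-Fx1A (y axis), for genes placed by their change with L-NAME alone against vehicle (x axis), with the number of genes above the bars. The shares called in the direction of L-NAME alone are 40.7% and 69.5% for genes raised 1.25 to 1.5-fold and 1.5 to 2-fold, and 41.0% and 62.1% for genes lowered as much.

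A change called in the combination was not always seen with L-NAME alone. With L-NAME alone 243 of the higher genes (20.3%) and 311 of the lower genes (25.2%) lay within 1.1-fold of vehicle, against 47.45% of all genes. Of the genes that changed at least 1.5-fold here, 4 of 193 higher and 14 of 299 lower genes did not have the same sign with L-NAME alone. There was 1 called higher here and lower for L-NAME alone, and 0 genes were called lower here and higher there. The difference between the responses was tested as an interaction.

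No gene passed the interaction test: 0 of the 12599 genes differed between these responses at an adjusted p under 0.05 (limma, lowest adjusted p 0.0505). The response with the antiserum includes the lower antiserum dose of the combination, so the test does not separate dose from L-NAME. At an unadjusted p under 0.05, 1102 genes (8.75%) passed, 543 higher and 559 lower, where 630 would on average by chance. With voom, 0 genes were higher and 2 lower. The median SE of the interaction was 0.152 log2 units, so that differences under about 0.298 log2 units lay within the unadjusted 95% interval of a typical gene. A call at the adjusted threshold takes a larger difference than this. A count of 0 does not show that the responses were alike. Calls appeared with library weights (4 higher and 33 lower) and without the 3 libraries of lowest weight (6 and 35), namely animal 1 of the vehicle group, 10 of the antiserum group and 25 of the L-NAME group. Without anti-Fx1A animals 9 to 12, 3 genes were higher and 33 lower, and without animals 13 to 18, 135 were higher and 260 lower. Single animals left out gave up to 15 lower genes, 15 without anti-Fx1A animal 10, 6 without L-NAME animal 25 and 5 without L-NAME animal 26.

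The animals were placed by the genes that L-NAME alone had changed. The contrast behind this list uses the other 18 animals, while the 20 animals entered the fit's filter and its estimate of the spread. For each animal the mean of the 784 genes lower with L-NAME alone was subtracted from the mean of the 996 genes higher with it. With the antiserum this difference lay between -0.90 and -0.26, with a median of -0.56 log2 units. In the combination it lay between -0.19 and 0.23, with a median of 0.0017. Every combination animal lay above every antiserum animal. The means were -0.56 ± 0.21 and 0.0092 ± 0.14 (SD, n = 10 each), a difference of 0.57 log2 units (permutation test, two-sided, p = 3e-05, adjusted p = 5e-05 over 5 measures). With the list taken from a fit of the 18 L-NAME and vehicle animals alone (946 higher and 684 lower genes, of which 860 and 608 were shared), the difference was 0.59 (permutation p = 3e-05), but the groups then overlapped slightly, the highest antiserum animal at -0.21 and the lowest combination animal at -0.22. The difference was 0.58 without antiserum animals 9 to 12 and 0.56 without 13 to 18, against all 10 combination animals each time. Vehicle animals lay between -1.19 and -0.97 on this measure, and animals given only L-NAME between -0.47 and 0.36. The list was chosen on these 18 animals, which draws their groups apart. All antiserum animals lay above all vehicle animals, so a higher value was not confined to animals given L-NAME.

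Within each group the animals were spread out along this measure. Combination animals 35 and 29 were highest, at 0.23 and 0.19. Animals 38, 33 and 37 were lowest in that group, at -0.19, -0.15 and -0.12. Among antiserum animals, 10, 15 and 12 came nearest to the combination, at -0.26, -0.33 and -0.37. Animals 9 and 16 lay farthest from it, at -0.90 and -0.87. Animals 10, 12 and 9 belong to the shallower stretch and 15 and 16 to the deeper one, so high and low values occurred in both.

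Both directions of the L-NAME list took part. The 996 genes that L-NAME alone had raised showed a mean level of 7.67 ± 0.13 with the antiserum and 7.98 ± 0.068 in the combination, a difference of 0.31 (permutation adjusted p = 5e-05), and the groups did not overlap. The genes lowered by it had a mean level of 8.23 ± 0.094 and 7.97 ± 0.099, a difference of -0.26 (permutation adjusted p = 7.5e-05), and here the lowest antiserum animal, 8.04, lay below the highest combination animal, at 8.08. Counted gene by gene, between 75.5 and 90.5% of the raised genes lay above the antiserum mean in each combination animal, with a median of 87.2%. Each antiserum animal, set against the mean of the other 9, had 18.8 to 76.0% of them above it. Of the lowered genes, 72.6 to 87.1% lay below the antiserum mean in each combination animal, and 25.4 to 71.7% in each antiserum animal. Over all genes tested the share above that mean stayed between 48.6 and 51.1% in all 20 animals.

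The 20 animals also fell apart by treatment when no gene was chosen. The leading component of their 12599 genes held 29.8% of the variance. Antiserum animals lay between -34.5 and -0.896 on it, with a median of -12.7, and combination animals between -0.382 and 31.8, with a median of 15.2. The groups did not overlap but met closely, at antiserum animal 15 and combination animal 38 (permutation adjusted p = 5e-05 over 5 measures). On the next component, with 23.9% of the variance, a difference between the treatments did not pass (permutation adjusted p = 0.884). On it antiserum animals 9 to 12 lay between 13.6 and 45.0 and animals 13 to 18 between -21.8 and -9.52.

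**Figure D4:**
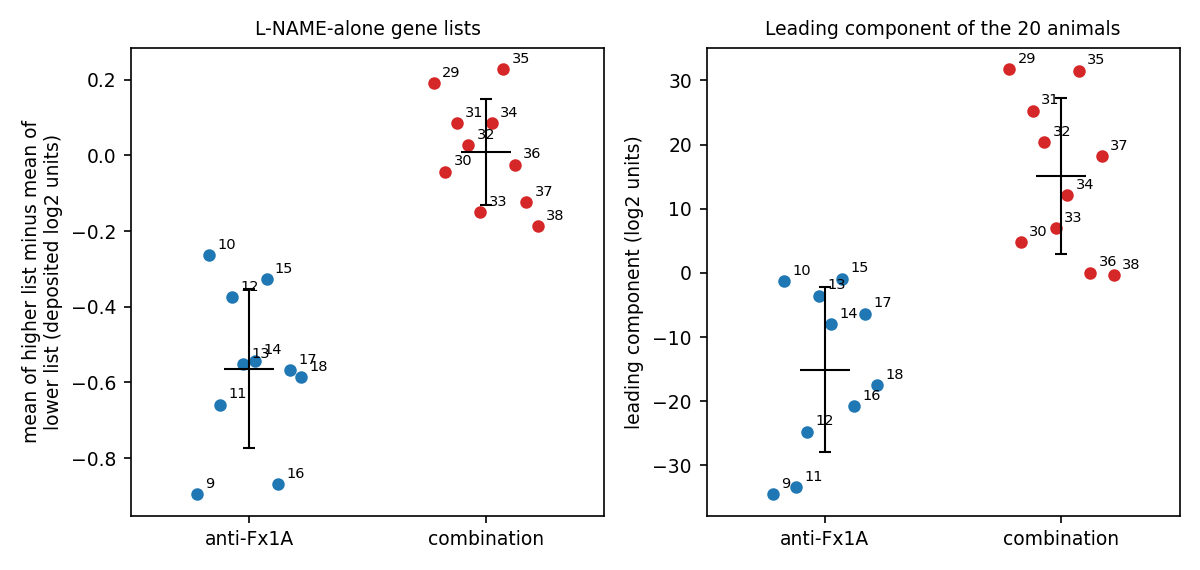
Left, mean level of the 996 genes that L-NAME alone raised minus that of the 784 genes lowered by it (deposited log2 units), for each antiserum and combination animal. Right, the leading component of the same 20 animals (log2 units). Numbers name the animals and bars show the mean ± SD. On the left the antiserum animals lie between -0.90 and -0.26 and the combination animals between -0.19 and 0.23. On the right the groups meet at -0.896 and -0.382.

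Single genes are given for the largest changes in each direction among called genes with a mean at least 2 log2 units above the lowest value. They were chosen by the difference between these 20 animals, so their fold changes tend to be inflated. In all 4 the level also differed between the stretches of the antiserum group, with every one of animals 9 to 12 above every one of 13 to 18 for all but ENSRNOG00000009086, where animal 9 lay just below animal 15. ENSRNOG00000009086 had the largest increase. With the antiserum its deposited log2 values ran from 5.34 over a median of 7.07 to 9.09, or from 12 over 93 to 516 reads. In the combination they ran from 8.23 over 8.86 to 10.1, or from 266 over 485 to 972 reads. All antiserum animals but animal 10 lay below the lowest combination animal. The means were 6.97 ± 1.0 and 8.93 ± 0.57 (SD, n = 10 each), a log2 fold change of 1.95 (SE 0.37, limma adjusted p = 0.000652). L-NAME alone was 1.01 above vehicle (adjusted p = 0.0762, which passed in 4 of 50 alternatives, within 0.0248 to 0.164), and the interaction of 0.94 did not pass (SE 0.53, adjusted p = 0.635). The log2 fold change was 2.495 without antiserum animals 9 to 12 (limma adjusted p = 8.67e-05). Without animals 13 to 18 the call was lost (1.14, adjusted p = 0.0592, within 1.48e-05 to 0.0592 over 52 alternatives).

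ENSRNOG00000010296 had a like distribution over the animals. Its log2 values were 6.54, 7.77 and 9.88 with the antiserum (lowest, median and highest) and 8.90, 9.59 and 9.97 in the combination, and its reads 66, 172.5 and 926 against 446, 770 and 1200. Animal 10 was again the highest antiserum animal, within the range of the combination, and the other 9 lay below that range. The log2 fold change was 1.80 (SE 0.32, limma adjusted p = 0.000408) and passed under all 52 alternatives (adjusted p 3.21e-06 to 0.0473). It was 2.30 without antiserum animals 9 to 12 and 1.04 without 13 to 18. With L-NAME alone it was 0.99 above vehicle (adjusted p = 0.0445, which did not pass in 18 of 50 alternatives), and the interaction was 0.81 (SE 0.46, adjusted p = 0.636). The medians with vehicle, antiserum and L-NAME alone were 6.45, 7.07 and 7.46 for ENSRNOG00000009086 and 7.09, 7.77 and 8.13 for ENSRNOG00000010296, and the ranges of these 3 groups overlapped.

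ENSRNOG00000033152 was read in every antiserum animal and in few combination animals. The antiserum animals had 145 to 1945 reads, with a median of 768. In the combination 7 of 10 animals had 0 reads, and the remaining 3, animals 33, 34 and 38, had 902, 192 and 72. A count of 0 allows up to 3 reads, or 0.451 to 0.535 reads per 1e6 reads in those 7 libraries, counting error only. The log2 values of the antiserum animals, 7.48 to 11.1 with a median of 9.52, overlapped those of animals 33 and 34, at 9.69 and 7.95. Antiserum animals 9 to 12 lay at 10.1 to 11.1 and animals 13 to 18 at 7.48 to 9.78. The fitted log2 fold change was -4.0 (SE 0.87, limma adjusted p = 0.00242). It was -3.19 without animals 9 to 12 (adjusted p = 0.0336) and -5.23 without 13 to 18 (adjusted p = 0.00254). It was not called with voom, although the change was larger there (-7.74, adjusted p = 0.0825, within 0.000416 to 0.0825 over 52 alternatives). Libraries at 0 also occurred without the antiserum, in 3 of 10 L-NAME animals and 1 of 8 vehicle animals. With L-NAME alone the difference from vehicle was -2.24 (adjusted p = 0.0984). It passed in 3 of 50 alternatives: without vehicle animal 1, the vehicle library at 0 (-3.02, limma adjusted p = 0.0129), with library weights (0.0203) and without the 3 libraries of lowest weight (0.0285), in a range of 0.0129 to 0.194. In the fit of all animals the interaction was -1.76 (SE 1.27, adjusted p = 0.71).

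ENSRNOG00000066253 kept the stretches of the antiserum group apart, while the treatments overlapped. Antiserum animals 9, 10, 11 and 12 had 1221, 1229, 1357 and 1064 reads. Animals 13 to 18 had 35, 131, 61, 223, 93 and 414 reads. The combination animals had 15 to 338 reads, with a median of 47.5, and so overlapped animals 13 to 18 and not 9 to 12. The means of 8.53 ± 1.80 and 6.52 ± 0.81 (SD, n = 10 each) gave a log2 fold change of -2.01 (SE 0.70, limma adjusted p = 0.0408). It was -0.73 without animals 9 to 12 (adjusted p = 0.533) and -3.94 without 13 to 18 (adjusted p = 0.00133), the range over its 52 alternatives. The call was lost in 16 of these, also without any 1 of antiserum animals 9, 10, 11, 12 and 18 or of combination animals 29, 30, 31, 32, 34, 35 and 37. L-NAME alone gave -0.65 against vehicle (adjusted p = 0.595), and the interaction was -1.36 (SE 1.02, adjusted p = 0.717). The vehicle and L-NAME animals with 0 reads of ENSRNOG00000033152 also had the fewest reads of ENSRNOG00000066253 in their groups. These were 4 reads in vehicle animal 1, and 2, 19 and 26 reads in L-NAME animals 25, 26 and 27.

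**Figure D5:**
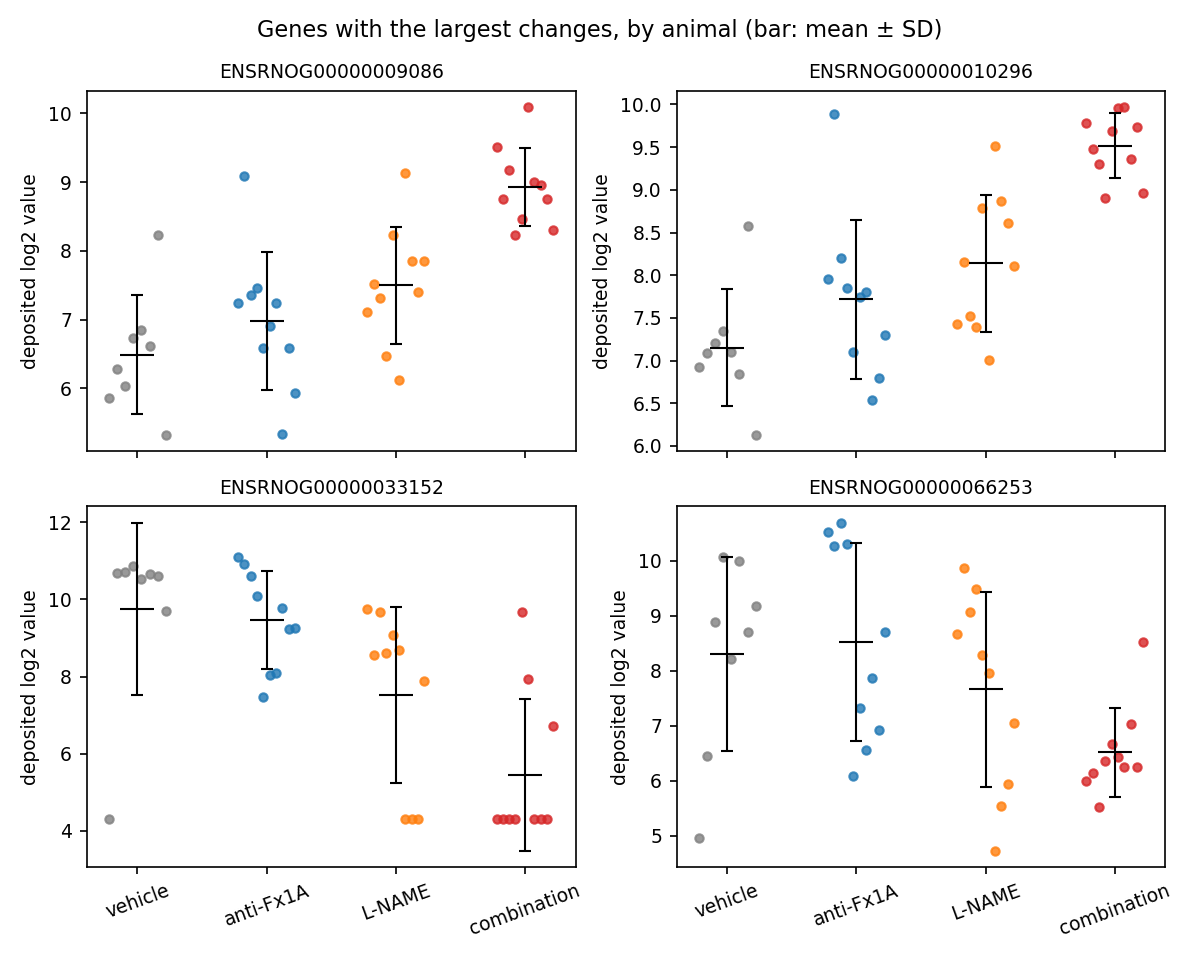
Deposited log2 values (y axis, a scale of its own in each panel) of 4 genes in every animal of the 4 groups (x axis), with bars for the mean ± SD. In the upper panels antiserum animal 10 is the 1 antiserum animal within the range of the combination. Lower left, 7 of 10 combination animals lie at the lowest value of the table, 4.32, a count of 0. Lower right, antiserum animals 9 to 12 lie apart from the other antiserum animals.

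Genes that were read in some animals and not in others were few. Of the genes tested, 41 had 0 reads in at least 1 of the 20 animals and 100 or more reads in another. Of these 3 were called higher and 8 lower in the combination, 26.8% of them against 19.3% of all genes tested. A single gene of the 41 had 0 reads in all 10 combination animals, and 0 genes had 0 reads in all 10 antiserum animals.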

How the data were processed

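Per the labels' protocols, 500 ng of RNA from each of 38 rat kidneys went into 3' libraries (QuantSeq FWD). Among the authors' tools, Salmon 1.4.0, edgeR 3.40.2 and DESeq2 appear in the submitters' processing notes, with no role or order. The sources used here give no genome build or annotation. The deposited values are log2 expression, scaled by library size and variance-stabilised by the authors, as the table's name and values show. The table holds 30207 genes, and 2 rows of sample and group numbers were left out. Columns were matched to samples by library name, and 0 columns belonged to another series. The lowest value, 4.31634, stands for a count of 0. Inverting the stabilising curve gave whole reads (within 0.05 of a whole number for 100% of values of up to 10000 reads in every library), whose sum was taken as depth. Limits from counts cover counting error only. Of 190 pairs among the 20 libraries 0 were identical.

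Genes with a mean over 38 animals of at least 5.32, that is 1 log2 unit above the lowest value, were tested (12599 genes, holding at least 99.43% of the reads of each of the 20 libraries). limma 3.58.1 in R 4.3.3 fitted 4 group means with trend and robust estimation, and p-values were Benjamini-Hochberg adjusted over all genes tested, with a threshold of 0.05. Columns are animals by the table's own header row, and batches are not given in the labels. The fit was tested on simulated data with independent noise and without the stretches of the antiserum group, so that test cannot speak to the stretches. Per-animal measures were compared by two-sided permutation tests with 100000 resamples (Python 3.11.15). The 3 library measures were adjusted together, and so were 5 further measures per animal. The members, gene lists and tests were chosen with earlier results of these data known, and the per-animal measures other than depth and composition were added after the data were seen. The 31 gene lists and the panel of 48 genes could not be applied without symbols. The rule for named genes then took the first 2 identifiers in each direction by log2 fold change, among called genes with a mean at least 2 log2 units above the lowest value.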

Additional observations from a re-analysis of the deposited data

Results flagged for a closer look

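A single animal lay far from the rest of its group in 3 of the 34 sets of values examined, where chance gives about 1 in 20. The 3 sets are of genes chosen by the difference between the groups, so the rate of 1 in 20 need not hold for them. ENSRNOG00000010296 had a log2 value of 9.88 in anti-Fx1A animal 10, and the next highest antiserum animal was at 8.20. ENSRNOG00000033152 was at 4.32, a count of 0, in vehicle animal 1, and the next lowest vehicle animal was at 9.70. ENSRNOG00000066253 had a log2 value of 8.52 in combination animal 38, and the next highest combination animal was at 7.04.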

How the results depend on the processing

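The counts of higher and lower genes in the combination against anti-Fx1A stayed within 1.5 times of those reported in 51 and 50 of 52 alternatives. The exceptions were requiring also a change of 1.5-fold (193 higher and 299 lower) and voom on recovered reads (669 lower, and 333 lower for L-NAME against vehicle). Leaving out single animals gave 844 to 1421 higher and 824 to 1432 lower genes, the lowest both without anti-Fx1A animal 9. Median-centred and quantile-normalised libraries shared 2283 and 2289 of the 2428 calls. The interaction, with 0 calls, moved most. It gave 4 higher and 33 lower genes with library weights, 6 and 35 without the 3 libraries of lowest weight, 3 and 33 without anti-Fx1A animals 9 to 12, and 135 and 260 without animals 13 to 18, the last pair of fits chosen after seeing the data. It gave 3 lower genes with a filter at 2 log2 units, 4 with the top-10 share as a covariate, 2 with voom, 2 with read depth as a covariate (added later), and 0 to 15 without single animals. The cause was not tested. The difference between the groups on the genes changed by L-NAME alone was 0.54 to 0.61 without single animals. No paired analysis was possible because the animals are numbered 1 to 38 and no number is shared between groups. Alternatives for gene lists were not run, since no symbols were at hand. The least abundant class of genes had a median of 19 reads, with a median SE of 0.107 log2 units against 0.105 in the most abundant class.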
